A study of Mus musculus with 2 samples.

Results

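The keratin genes are the largest family of intermediate filament genes in epithelia. The set described here holds every protein-coding gene present in both gene tables whose symbol is Krt followed by a number and at most 1 letter, which gave 53 of the 43346 mouse genes in the tables. Membership rests on the symbol alone and not on any measured value. Of the 53 members, 28 are type I and 25 are type II keratins, and by the epithelium they are best known from 6 were placed in a simple class (Krt7, Krt8, Krt18, Krt19, Krt20, Krt23), 4 in a basal class (Krt5, Krt14, Krt15, Krt17), 15 in a stratified class, 24 in a class of hair, nail and root sheath, and 4 in none of these.

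The libraries were total RNA sequencing of lung from newborn mice of the strain B6NCrl at postnatal day 0, with the pair of lungs of 1 pup in each of the 2 libraries. The pups are numbered 1 and 3 of pregnancy 1, their sex was not collected, and no genetic change or treatment is named. RNA above 200 nt was isolated by the Ambion mirVana kit, 10 ng was used per library, and a SMARTer low-input manual is named. Both libraries form a single group, so there is no comparison between conditions and no p-value is given. The labels attach the same donor identifier to both libraries, so that n = 2 and every SD below rest on the pup numbers alone and measure only the spread between these libraries.

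Keratin filaments are built from heterodimers of an acidic type I and a basic type II chain. Single-layered epithelia mainly use Krt8 with Krt18, often joined by Krt7 and Krt19. Basal cells of layered epithelia, including those of the large airways, use Krt5 with Krt14 and often Krt15, and cells that leave the basal layer switch to pairs such as Krt1 with Krt10 in epidermis or Krt4 with Krt13 in moist linings. In lung, simple keratins are found in airway and alveolar epithelium and in the mesothelium that covers the organ.

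Summed over genes, the expected counts came to 42189536 in pup 1 and 37026165 in pup 3, a ratio of effective library sizes of 1.11 after TMM scaling. Markers of the organ were present: all 8 alveolar type 2, all 10 alveolar type 1, all 6 airway secretory and all 6 ciliated cell markers listed reached 1 TPM (a level per transcript length, scaled to the same total in each library) in both pups. All 5 mesothelial markers that could be matched reached it as well. Of the 21474 protein-coding genes, 12942 (60.3%) did so, and a gene that did is called detected below.

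Transcript of the simple keratins dominated the family. Of the 53 keratins, 10 (18.9%) were detected, and they were Krt19, Krt7, Krt8, Krt18, Krt15, Krt80, Krt23, Krt10, Krt4 and Krt14 in order of mean TPM. The other 43 keratins were below 1 TPM in at least 1 pup, of which 19 had no count in either pup and 24 had at least 1 count while staying under 1 TPM in both. The family summed to 1404 TPM in pup 1 and 1588 TPM in pup 3 (1496 ± 130, SD, n = 2), which was 0.140% and 0.159% of all TPM. The simple class held 96.0% of the keratin TPM in pup 1 and 94.97% in pup 3 (95.5 ± 0.700%), from 5 detected genes of 6. The basal class held 1.95% and 3.41%, most of it Krt15 (1.76% and 3.27%), and the stratified class held 0.687% and 0.607%. The hair, nail and root sheath class held 0.0777% and 0.0598%. The 4 unclassed genes held 1.33% and 0.951%, almost all of it Krt80.

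**Figure D1:**
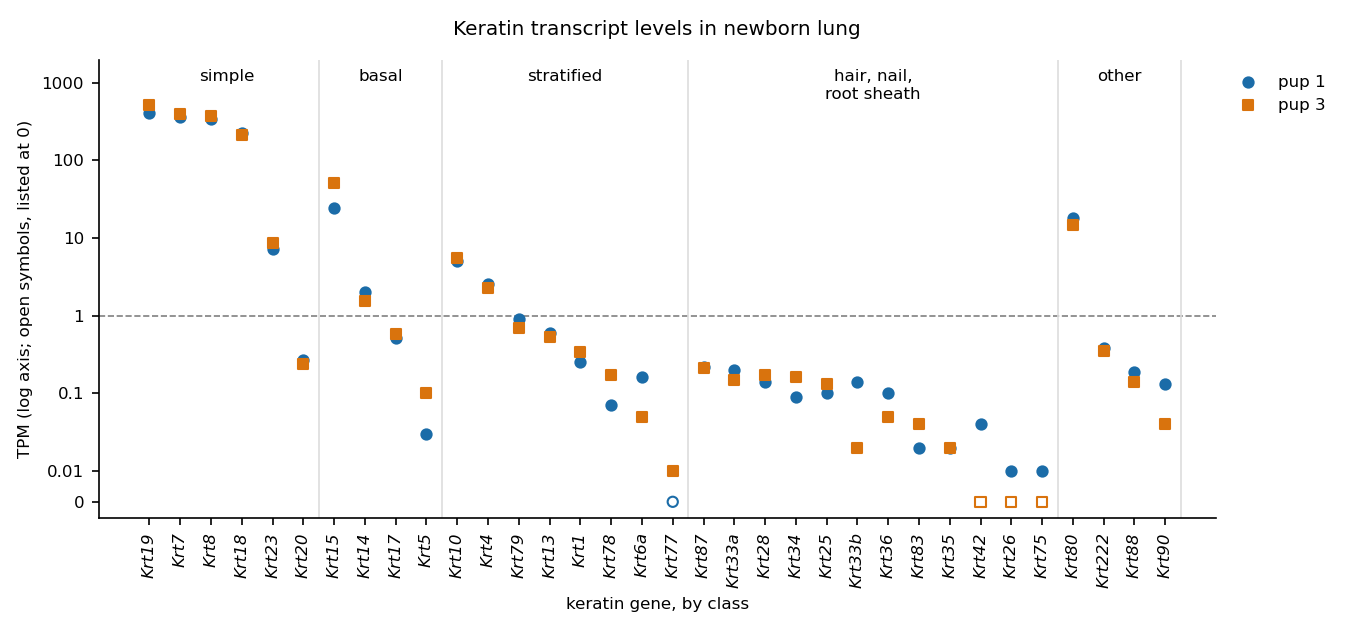
Level in TPM on a log axis of the 34 keratins with a count in at least 1 pup, ordered by class, with circles for pup 1 and squares for pup 3 and open symbols for a level listed at 0. The dashed line marks 1 TPM, and Krt19, Krt7, Krt8 and Krt18 lie above 200 TPM in both pups while every hair, nail and root sheath keratin lies at or below 0.22 TPM.

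Krt19, a type I keratin of simple epithelia that is unusually short because it lacks most of the tail domain, had the highest level by deposited TPM. It stood at 409.6 TPM in pup 1 and 513 TPM in pup 3 (461 ± 72.8), rank 239 among protein-coding genes by mean TPM. Its gene lies on the minus strand of chromosome 11 at 100140810 to 100148665 (GRCm38). Krt7, a type II keratin of ducts and airway linings, stood at 368 and 399 TPM (383 ± 21.8), rank 314. It lies on the plus strand of chromosome 15 at 101411043 to 101430313. Krt8, the type II partner of Krt18, stood at 338 and 375 TPM (356 ± 26.2), rank 350, and lies on the minus strand of chromosome 15 at 101996698 to 102004482. Krt18, the type I partner of Krt8, stood at 224 and 213 TPM (219 ± 7.87), rank 611. Its gene, on the plus strand of chromosome 15 at 102028180 to 102032027, is the single type I member outside chromosome 11.

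These 4 genes together made up 95.4% of the keratin TPM in pup 1 and 94.4% in pup 3. Their order was the same in both pups. Krt18 lay below the other 3 in both libraries without overlap. Krt8 lay below Krt7 within each library, by a small difference that was larger than its spread between pups (log2 ratio −0.11 ± 0.02), although the ranges of the 2 genes over the pups overlapped. Krt19 lay above Krt7 in both pups without overlap. That upper part of the order depends on transcript models, as described below for isoforms.

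Summed by type, the family was near balance. Type I keratins summed to 676 TPM in pup 1 and 796 TPM in pup 3, and type II keratins to 728 and 792 TPM. The ratio of type I to type II was 0.928 in pup 1 and 1.00 in pup 3, a mean log2 ratio of −0.05 ± 0.08, so the departure from 1 was smaller than the spread between pups. Within the classical pairs the levels were not equal. Krt8 exceeded Krt18 by 1.51-fold in pup 1 and 1.76-fold in pup 3 (log2 0.70 ± 0.16). Krt7 over Krt19 was 0.898 and 0.778, and Krt8 over Krt7 was 0.918 and 0.940. Krt19 exceeded Krt18, the other abundant type I chain, by 1.83-fold and 2.40-fold. Near balance between types was therefore measured over the family sum, with Krt19 supplying the largest type I share (29.2% and 32.3% of all keratin TPM) and Krt7 the largest type II share (26.2% and 25.1%). By expected counts, which are not scaled by length, the log2 ratio of type I to type II was −0.73.

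**Figure D2:**
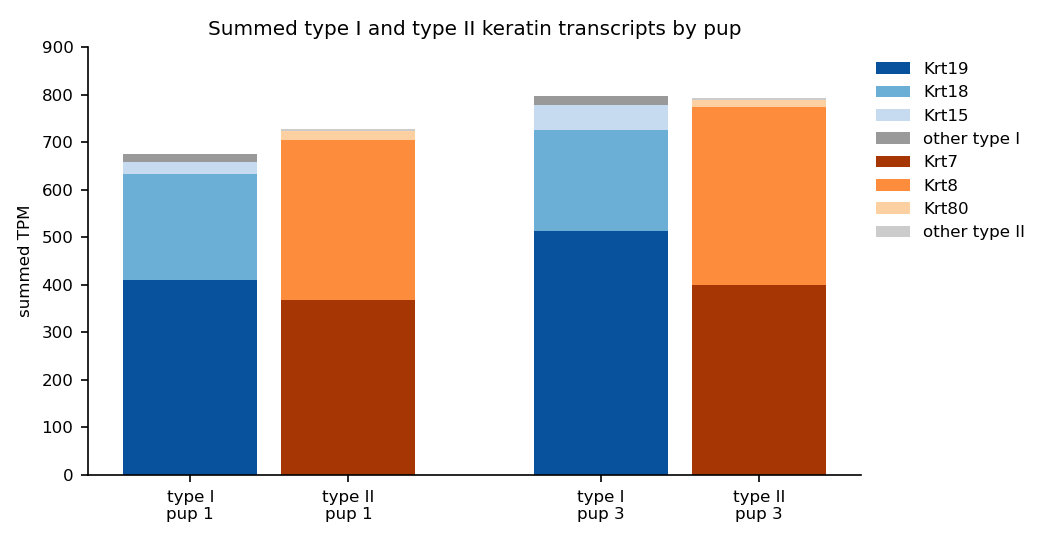
Summed TPM of type I and of type II keratins in each pup as stacked bars, with the 3 most abundant members of each type drawn separately. The type I bar reaches 676 TPM in pup 1 and 796 TPM in pup 3 and the type II bar 728 and 792 TPM, and the 2 bars differ less in pup 3 than in pup 1.

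The fifth keratin by level was Krt15, a type I keratin of basal cells, and it differed most between the pups among the detected members. It stood at 24.8 TPM in pup 1 and 52.0 TPM in pup 3 (38.4 ± 19.2), rank 3491, from 1279 and 2272 counts. On scaled counts it was 1.98-fold higher in pup 3 (95% counting interval 1.85 to 2.12), a log2 ratio of pup 1 to pup 3 of −0.98. Of the 15790 genes whose counts summed to 50 or more, 1.45% had an absolute log2 ratio at least as large. In bulk tissue, fewer cells of a type and less RNA per cell cannot be told apart. Krt14, the type I keratin most often used to mark basal cells, lay in the other direction at 2.04 and 1.56 TPM (101 and 63 counts). It was 1.44-fold higher in pup 1 (counting interval 1.04 to 2.00), so the ratio of Krt15 to Krt14 was 12.1 in pup 1 and 33.3 in pup 3. Krt5, the type II partner of Krt14, had 2.17 and 6.00 expected counts, or 0.03 and 0.10 TPM, and Krt17 had 0.51 and 0.58 TPM. Krt15 therefore had no type II basal partner above 1 TPM in either library.

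Genes known from basal cells were given from a list of 8 that includes Krt5, Krt14 and Krt15. Of the 8, 5 were detected, Krt14 and Krt15 among them. The list summed to 61.8 TPM in pup 1 and 104 TPM in pup 3, Krt15 included. Snai2, a repressor also made by mesenchymal cells, stood at 25.3 and 33.8 TPM, and Aqp3, a water and glycerol channel, at 7.60 and 13.5 TPM. Trp63, the transcription factor that defines basal cells, had 10 counts in each pup, and the receptor gene Ngfr had 41 in each. Of the 6 list members with at least 50 counts, 1 was higher in pup 1 and 5 were higher in pup 3, and none reached 2-fold. Krt15 itself is among the 5, and the counting intervals of Ngfr and of Dapl1, also on the list, held 1. Those of Snai2 and Aqp3, higher in pup 3, and of Krt14, higher in pup 1, left out 1. The part of these markers in the Krt15 difference was not tested. Thymic epithelium also uses Krt5 and Krt14: its defining gene Foxn1 had 1 and 0 counts, and its list of 4 summed to 2.98 and 3.77 TPM.

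The pups were compared by a rule of size: scaled counts at least 2-fold apart, a summed count of 50 or more, and a 95% counting interval of the ratio that left out 1. None of the 13 keratins with enough counts passed, against 1.39% of the 15790 genes. Each side of this comparison is a single library, so no replicate stands behind a difference, and the intervals cover counting error only. With a threshold of 1.5-fold, Krt15 alone of the 13 passed, against 5.09% of all genes. Krt15 also passed the 2-fold rule on TPM with a pseudocount of 1, where its log2 ratio was −1.04 and 0.526% of all genes passed, and on TPM with a pseudocount of 0.1, at −1.07, where 1.25% passed. It passed as well with counts scaled by the library total, at −1.02, where 1.42% passed. With spike-in scaling it stood at −0.83 and did not pass. Its distance from the threshold was thus smaller than the change from 1 scaling to another, while its direction was the same in each.

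Of the 13 keratins, 8 were higher in pup 1 and 5 in pup 3, with a median log2 ratio of pup 1 to pup 3 of 0.15 beside −0.0021 over all genes tested. The counting interval left out 1 in 6 of them, and the same share was not computed over all genes. With many counts the interval leaves out 1 at small ratios, as for Krt8 below. Krt19 was 1.20-fold higher in pup 3 (1.17 to 1.22), and Krt18 was 1.11-fold higher in pup 1 (1.08 to 1.14). Krt8 was 1.05-fold higher in pup 3 (1.03 to 1.07), a direction that turned with spike-in scaling (log2 ratio 0.08). Krt80 was 1.30-fold higher in pup 1 (1.18 to 1.44). The ratio for Krt7 was 1.01 (0.991 to 1.03). For scale, the central 68% of the 9725 genes with at least 1000 counts lay within a log2 ratio of 0.167 of either side. Of the keratins with that many counts, Krt7, Krt8 and Krt18 lay inside that range and Krt19, Krt80 and Krt15 outside it.

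**Figure D3:**
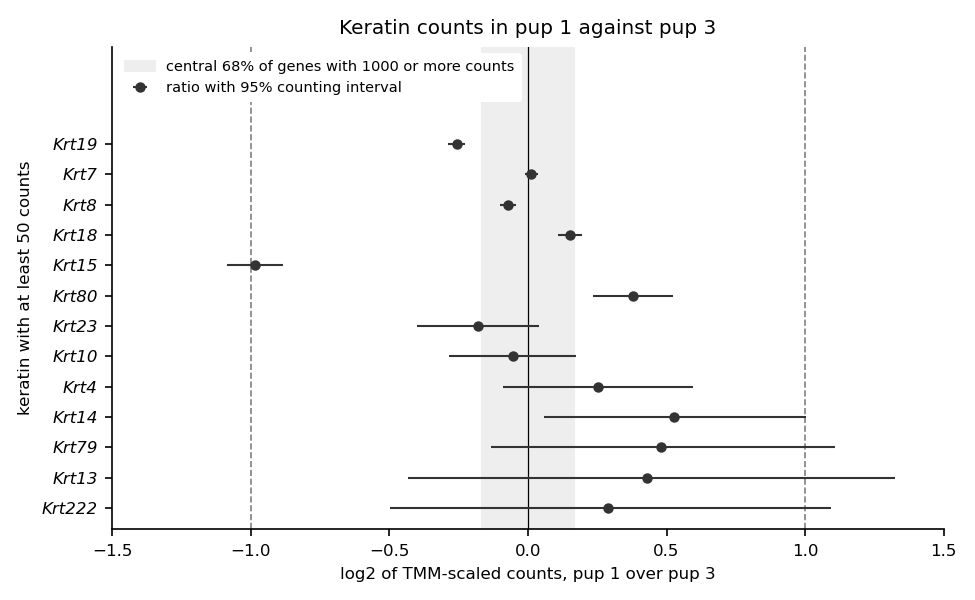
Log2 ratio of TMM-scaled counts in pup 1 over pup 3 for the 13 keratins with at least 50 counts, with 95% counting intervals as bars. Dashed lines mark 2-fold and the shaded band the central 68% of genes with at least 1000 counts, and Krt15 at −0.98 lies next to the line for 2-fold higher in pup 3.

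Of the remaining detected keratins, Krt80 belongs to no class used here. This type II keratin lies next to Krt7 on chromosome 15 and stood at 18.0 and 14.6 TPM (971 and 670 counts). Krt23, a type I keratin placed in the simple class, stood at 7.19 and 8.60 TPM. Krt10, a type I keratin of epidermal cells above the basal layer, stood at 5.10 and 5.59 TPM (328 and 306 counts), while its partner Krt1 stood at 0.25 and 0.34 TPM (19 and 22 counts). Krt10 overlaps Gm11940, an annotated antisense gene with 20 and 11 counts, and whether counting used strand is unknown here, so reads of the pair cannot be told apart. Krt4, a type II keratin of moist layered linings such as the oesophagus, stood at 2.55 and 2.26 TPM, and its partner Krt13 at 0.60 and 0.53 TPM (30 and 20 counts). In each of these layered pairs 1 partner was detected and the other was not.

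Just below 1 TPM lay Krt79 at 0.92 and 0.69 TPM (59 and 38 counts), and Krt222, a keratin-like gene, was at 0.38 and 0.35 TPM. Krt20, a type I keratin of intestinal and urothelial surface cells, was at 0.27 and 0.24 TPM and was the simple keratin that was not detected. Of the 15 stratified keratins 2 were detected and 7 had no count, among them Krt2, Krt9, Krt12 and Krt16. Of the 24 hair, nail and root sheath keratins none was detected, 12 had no count, and the highest count in either pup was 12, for Krt87. For keratins with no count, an upper limit of 3 counts corresponded to between 0.0370 and 0.0844 TPM in pup 1 and between 0.0435 and 0.0992 TPM in pup 3, depending on length. For those keratins, levels below the limits cannot be told from absence. The limits are no floor for members with a count: Krt35, with 1 count in each pup, stood at 0.02 TPM in both.

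The detected keratins sat at a few places within the 2 gene groups. On chromosome 11, Krt15 and Krt19 are direct neighbours among the keratins, 4.9 kb apart on the same strand. Both were higher in pup 3, by 1.98-fold and 1.20-fold. Krt13, the neighbour on the other side of Krt15, was 1.35-fold higher in pup 1, with a counting interval that held 1 (0.740 to 2.50). A shared cause was not tested. On chromosome 15, Krt8 and Krt18 are neighbours at the end of the group, 23.7 kb apart on opposite strands, and Krt80 and Krt7 are neighbours at the other end. Krt87, a hair keratin on the opposite strand, ends 0.7 kb beyond the end of Krt7 and has its start on the far side. It stood at 0.22 and 0.21 TPM next to Krt7 at 368 and 399 TPM. Of the 27 type I keratins on chromosome 11, 5 were detected, and of the 26 keratins on chromosome 15, 5 were.

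**Figure D4:**
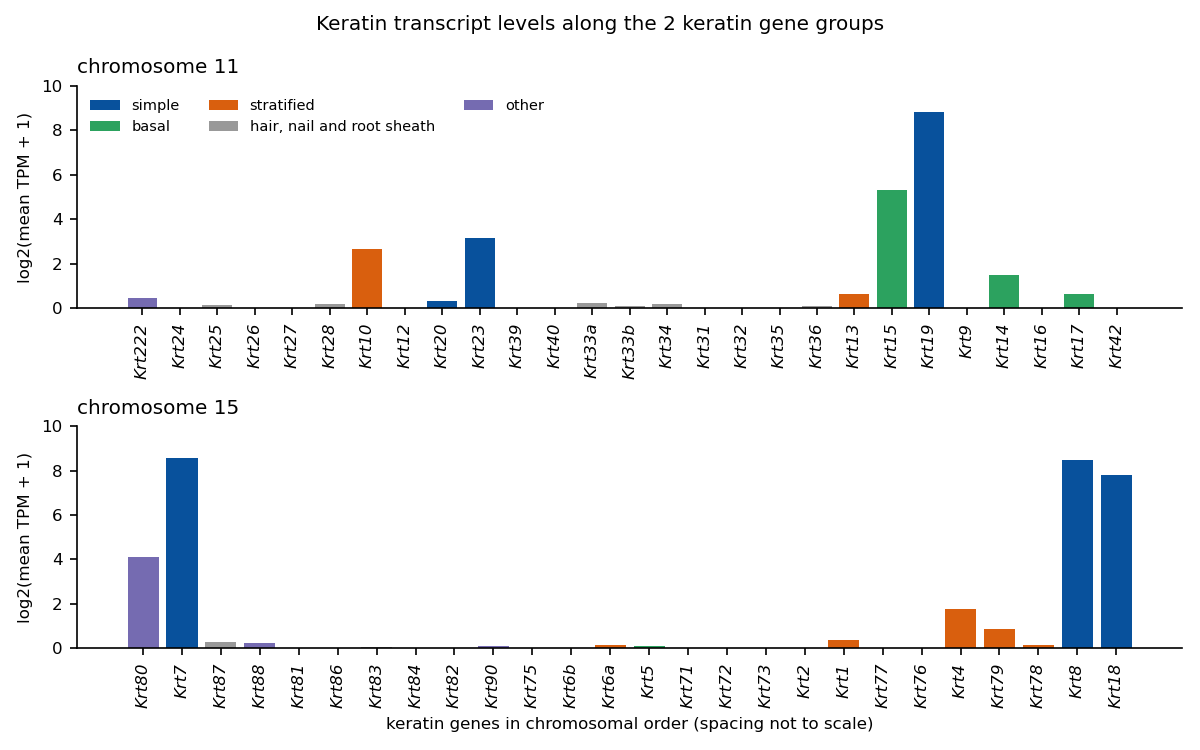
Mean level of each keratin over the 2 pups, as log2(TPM + 1), with the genes of chromosome 11 (upper panel) and chromosome 15 (lower panel) in chromosomal order and bars coloured by class. The tall bars are Krt15 and Krt19, side by side on chromosome 11, and Krt7 near the start and Krt8 and Krt18 at the end of chromosome 15, with long runs of genes near 0 between them.

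By RefSeq starts, promoter sequence differed among members, and its relation to level was not tested. RefSeq windows of 300 bases (250 before to 50 after a gene's start, GRCm38.p6) were matched for 36 of the 53 keratins, giving 37 windows beside 32851 windows in all. Krt7 and Krt18 were taken as the most and a less abundant simple keratin of chromosome 15 with a window. Krt71, a root sheath keratin of the same chromosome with no count, was taken with its motifs known. Of the keratins there with no count and with TATAA 20 to 40 bases before the start, it lies nearest to Krt7. Its TATAA at that place was thus fixed by the choice. A stretch of 200 bases is shown for each of these genes. Each is 5′ to 3′ on the gene's strand, from 214 to 15 bases before the RefSeq start, and capitals mark matches on either strand to TATAA (the core of a TATA box), to GGGCGG (the core of a GC box), to CCAAT (the core of a CCAAT box) or to TGANTCA (the core of an AP-1 site, where N is any base). None of these motifs contains another, though TATAA can overlap its own complement.
Krt7, chr15:101412189-101412388, plus strand: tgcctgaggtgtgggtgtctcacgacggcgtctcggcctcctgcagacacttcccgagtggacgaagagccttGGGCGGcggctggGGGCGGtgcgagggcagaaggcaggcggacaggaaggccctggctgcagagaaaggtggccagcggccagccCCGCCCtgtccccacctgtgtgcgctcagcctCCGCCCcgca
Krt18, chr15:102028002-102028201, plus strand: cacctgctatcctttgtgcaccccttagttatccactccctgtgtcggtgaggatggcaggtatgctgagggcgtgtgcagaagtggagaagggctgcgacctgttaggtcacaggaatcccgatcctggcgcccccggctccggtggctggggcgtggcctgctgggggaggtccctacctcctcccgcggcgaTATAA
Krt71, chr15:101743112-101743311, minus strand: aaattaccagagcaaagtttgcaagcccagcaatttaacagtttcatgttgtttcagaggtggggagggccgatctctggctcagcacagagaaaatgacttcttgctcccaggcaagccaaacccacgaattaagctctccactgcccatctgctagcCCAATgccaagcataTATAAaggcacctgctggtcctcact

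The Krt7 window held 4 matches to GGGCGG and 21 CpG dinucleotides, with no TATAA. The window of Krt8, for which no stretch is shown, held 6 CpG and no GGGCGG. It held TATAA with its overlapping complement 1 and 2 bases before the RefSeq start. The Krt18 window held 17 CpG and TATAA 19 bases before the RefSeq start, and the Krt71 window held 4 CpG, CCAAT 55 bases and TATAA 40 bases before it, and a further TATAA with its overlapping complement 243 and 244 bases before it, outside the stretch shown. Over the family, TATAA on either strand lay in 70.3% of keratin windows against 24.9% of all windows. On the gene's own strand and 20 to 40 bases before the start, the usual place of a TATA box, it lay in 17 keratin windows (45.9%) against 3.52% of all. GGGCGG lay in 5.41% of keratin windows against 35.7% of all, CCAAT in 40.5% against 37.4%, and TGANTCA in 5.41% against 7.81%. Among the keratins, TATAA at 20 to 40 bases lay in 16 of the 31 windows of members that were not detected and in 1 of the 6 windows of detected members. On either strand and anywhere in the window, it lay in 23 of the 31 (74.2%) and in 3 of the 6 (50%). GGGCGG lay in 1 of the 31, that of Krt75, and in 1 of the 6, that of Krt7. The median number of CpG was 4 (2 to 11) in windows of undetected members and 6 (2 to 21) in those of detected members. The detected Krt19, Krt15, Krt80 and Krt4 had no window, and the TATAA of Krt18 lay just outside the range. Keratin windows from 1 gene group share descent, and a match is a description and not a site. Start sites also differ between annotations: GENCODE places the Krt18 start at 102028180 and RefSeq at 102028216. For Krt7 the GENCODE start is 101411043 and the RefSeq start 101412403. The Krt7 window thus lies inside the gene as GENCODE places it, and not before its start. The TATAA of Krt18 likewise lies past the GENCODE start.

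Isoform estimates bear on the order of the most abundant keratins. Krt7 was divided mainly between Krt7-201, a coding transcript of 4094 bases with 50.1% (pup 1) and 47.9% (pup 3) of the gene's abundance, and Krt7-204, a coding transcript of 642 bases with 42.8% and 43.9%. The short transcript reached that share with 2759 and 2608 expected counts, against 23755 and 20946 for the long one. Krt19 was divided between Krt19-201, the coding transcript of 1576 bases, with 62.7% and 63.9%, and Krt19-203, an 823-base transcript annotated as processed without a coding frame, with 37.2% and 36.1%. Krt8, Krt18, Krt80, Krt23, Krt10 and Krt4 each had a single transcript in the tables, and Krt15-201 held 100% and 99.1% of Krt15. Krt14-201, the coding transcript of Krt14, held 89.2% and 77.0%.

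When every keratin was scaled by the effective length of its longest coding transcript, an alternative chosen after the data were seen, Krt19 stood at 332 and 418 TPM and Krt7 at 218 and 228 TPM. Krt8 and Krt18, with 1 transcript each, stayed where they were. In that scaling Krt8 lay above Krt7 in both pups and, at 338 TPM, above Krt19 in pup 1, and the order of Krt7 and Krt18 differed between the pups. The order of Krt7 and Krt8 in both pups, and the first place of Krt19 in pup 1, thus depended on the length used, whereas all 4 genes stayed above 200 TPM in both pups under either length.

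**Figure D5:**
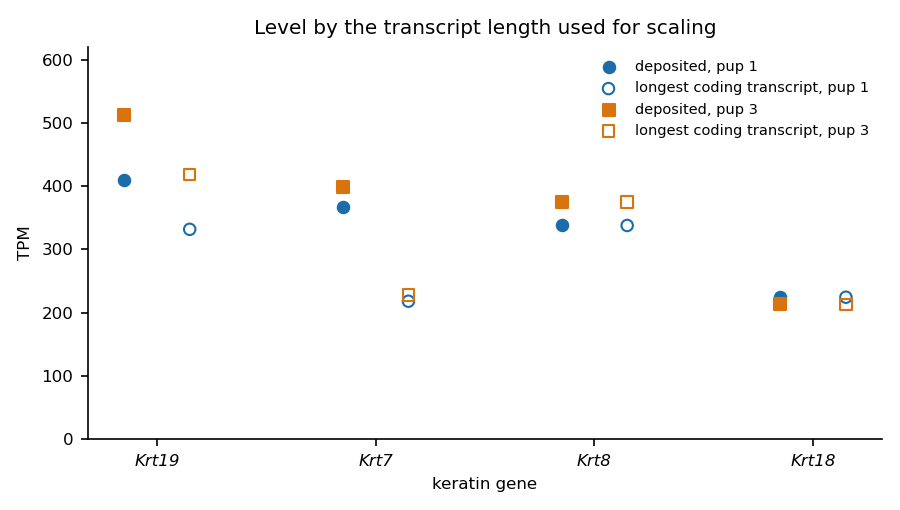
Level in TPM of the 4 most abundant keratins as deposited (filled symbols) and when scaled by the longest coding transcript (open symbols), with circles for pup 1 and squares for pup 3. Krt7 moves from 368 and 399 TPM to 218 and 228 TPM and Krt19 from 409.6 and 513 TPM to 332 and 418 TPM, while Krt8 and Krt18 do not move.

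Read sharing was examined for the same genes. The deposited posterior SD of the count was 0 in both pups for 9 of the 10 detected keratins, the exception being Krt14, so the deposited model held no uncertainty over the count of those 9. Expected counts that are not whole, as for Krt5, Krt6a, Krt33a, Krt33b and Krt34, hold reads split among similar features, and those levels are uncertain. By sequence, the Krt8 transcript matches the processed pseudogene Krt8-ps at 98.6% identity over 941 bases, and Krt18 matches the pseudogene Gm5200 at 90.5% over 1267 bases. Neither pseudogene was analysed here, so any reads from them could have been counted with Krt8 and Krt18, which was not tested. Coding transcripts of Krt7 share stretches of up to 191 bases at 90% identity or more with other genes. On the opposite strand, Krt7, Krt8 and Krt80 overlap noncoding genes (Gm671, Gm36026 and Gm35853) that were not analysed here.

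Genes that anchor, organise or accompany keratin filaments were given from lists. Of 23 desmosome and hemidesmosome genes, 14 were detected, and the list summed to 492 TPM in pup 1 and 541 TPM in pup 3. Jup, the plakoglobin shared by desmosomes and adherens junctions, was highest at 203 and 222 TPM, followed by the cytolinker gene Plec (69.2 and 80.9 TPM) and the laminin receptor gene Itga6 (72.0 and 73.4 TPM). Dsp, the desmoplakin that ties keratin to the desmosome, stood at 4.85 and 6.16 TPM. Of the desmosomal cadherins, Dsg2 was detected at 1.05 and 1.41 TPM, and Dsc2 had 74 and 69 counts (0.52 and 0.61 TPM). Dsc3 had 6 and 4 counts and Dsg1a had 2 and 0, while Dsg1b, Dsg1c, Dsg3, Dsg4 and Dsc1 had none.

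All 6 genes of a list on keratin organisation were detected, summing to 516 and 491 TPM. The highest were Hspb1, a small heat shock protein gene (220 and 176 TPM), the casein kinase gene Csnk1a1 (157 and 161 TPM) and Dnajb6, a co-chaperone that binds Krt18 (104 and 111 TPM). Of 13 other intermediate filament genes, 7 were detected, led by Vim, the vimentin of mesenchymal cells, at 1023 and 960 TPM. Lmna, a nuclear lamin, stood at 192 and 165 TPM and Des, the desmin of muscle, at 59.1 and 52.4 TPM. Vim alone stood above each keratin in both pups, and the keratin family together stood above Vim. No gene of these 3 lists differed between the pups by the 2-fold rule, against 1.39% of the 15790 genes.

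Of 12 cornified envelope genes, which mark terminal differentiation of skin, 7 were detected, with a sum of 107 and 95.9 TPM. Dmkn held most of it at 65.5 and 57.8 TPM, followed by Sbsn at 19.0 and 13.7 TPM and Tgm1, a crosslinking enzyme gene, at 12.2 and 17.8 TPM. Flg, Sprr1b and Sprr3 had no count. None of the 7 genes with at least 50 counts differed by the 2-fold rule, against 1.39% of the 15790 genes. Of the 7, 6 were higher in pup 1, but the counting intervals of Krtdap, Sprr1a and Lor held 1. Keratins known from several lung cell types cannot be assigned to a cell type in these bulk libraries: alveolar type 1 markers summed to 5720 and 6220 TPM, airway secretory markers to 32879 and 34547 TPM and mesothelial markers, led by Msln at 435 and 479 TPM, to 557 and 598 TPM.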

How the data were processed

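Total RNA libraries of newborn lung from pups 1 and 3 were analysed from the gene and transcript tables. Per the file headers, the authors deposited expected counts (estimated counts that need not be whole), TPM, FPKM, isoform percent, and posterior means and SDs of the counts. The text files deposited with the libraries name the assembly mm10 and the annotation M4. Which aligner, counting program and strand setting the authors used is not given in the sources used here. Names, types and coordinates came from GENCODE M21 on the same assembly, matched by gene identifier (42462 of 43346).

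The members and all lists were chosen with earlier results of these data known. Named were detected keratins, the markers Krt7, Krt8, Krt18, Krt19 and Krt15, the highest undetected keratins, classical members of the other classes, and the 3 highest genes of each further list with its members at 0 where the list is basal or cornified. Krt71, Krt87, other keratins without counts, Trp63, Ngfr, Dsp, the desmosomal cadherins, Foxn1 and the hair follicle markers were named after their values were seen. Krt3 and Krt85 were not analysed here, nor was Muc16 of the mesothelial list, and Krt74 is annotated as a pseudogene.

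Levels are deposited TPM per pup and mean ± SD. For the pups, expected counts were rounded, scaled by TMM (edgeR 4.0.16, R 4.3.3) and given a prior count of 0.5 in log2 ratios. Exact conditional binomial 95% intervals used scipy 1.17.1 (Python 3.11.15, pandas 2.3.3), without the prior count. With 1 library per pup no edgeR test has residual degrees of freedom. DESeq2 1.42.0 size factors, total counts, spike-in totals, other filters, pseudocounts and folds were alternatives. Similar transcripts were sought with blastn 2.17.0 (at least 90% identity over 100 bases). The size rule was tested on simulated data. Reads are not independent molecules, so intervals and zero-count limits cover counting error only. Protein sequences were not compared.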

Additional observations from a re-analysis of the deposited data

How the results depend on the processing

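Deposited FPKM is another unit, so its keratin total of 1126 beside 1496 TPM is no change in the result. Expected counts without length scaling gave log2 ratios of −0.73 for type I over type II, 1.09 for Krt8 over Krt18, −0.55 for Krt8 over Krt7 and, with the direction turned, 0.70 for Krt7 over Krt19. Scaling by the longest coding transcript, an alternative added after the data were seen, gave a total of 1249 TPM, a simple share of 94.6% and log2 ratios of 0.11 for type I over type II, −0.74 for Krt7 over Krt19, 0.77 for Krt19 over Krt18 and, with the direction turned, 0.67 for Krt8 over Krt7. The changes in both sets of ratios follow from the length used. In place of 10 detected keratins, a threshold of 0.1 TPM gave 21, a threshold of 5 TPM gave 8, and deposited posterior mean TPM gave 11. The count of keratins that differ between the pups was 1 (Krt15) with total-count scaling, with a 1.5-fold threshold and on TPM with either pseudocount, and 0 otherwise. The log2 ratio of Krt8 between the pups turned to 0.078 with spike-in totals, which rest on 317 and 316 counts. The log2 size of pup 1 over pup 3 was 0.0046 by spike-ins and 0.16 by TMM.

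Leaving out either pup leaves the other pup's own value, so it is no check of stability here; it gave a total of 1404 to 1588 TPM, log2 type I over type II of −0.11 to 0.01, a simple share of 94.97 to 96.0%, and 10 detected keratins either way. The same gave 0.59 to 0.81 for Krt8 over Krt18, −0.36 to −0.16 for Krt7 over Krt19, −0.12 to −0.09 for Krt8 over Krt7 and 0.87 to 1.27 for Krt19 over Krt18. No paired analysis was possible because there is 1 group. Adding counts of similar pseudogenes was not run, since none was analysed here. Low counts leave the levels of the undetected keratins imprecise.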

Other observations

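Transcription factors known from epithelia were measured beside the keratins, and 11 of 12 listed genes were detected, with a sum of 147 TPM in pup 1 and 155 TPM in pup 3. Klf5 stood at 47.7 and 43.5 TPM, Klf4 at 34.4 and 38.3 TPM and Elf3 at 28.1 and 40.3 TPM. Trp63 was the factor not detected, at 0.15 and 0.11 TPM. None of the 11 genes with at least 50 counts passed the 2-fold rule between the pups, against 1.39% of the 15790 genes. Of 6 hair follicle markers, 1 was detected: Tchh, which encodes trichohyalin of the inner root sheath, had 683 and 713 counts (3.70 and 4.54 TPM), while Hoxc13, Krtap5-1 and Krtap8-1 had none and all 24 keratins of hair, nail and root sheath were below 1 TPM.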
